A study of Mus musculus with 57 samples.

Results

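Acetaminophen (APAP, 6 mice) and carbon tetrachloride (CCl4, 7 mice) livers were compared directly, as 13 of the 57 livers of the series. All mice were wild-type C57BL/6JJcl males, labelled as 6 weeks old and acclimatised for 1 week (whether the age was counted before or after that week is not said), fasted for 12 h before a single administration and killed 24 h after it. APAP was given by gavage and CCl4 by intraperitoneal injection. The controls of the same routes were 13 mice given 0.5% methylcellulose by gavage (labelled Ctrl) and 2 mice given saline intraperitoneally (labelled CIP). The labels name methylcellulose, saline and corn oil as the vehicles, do not say which compound was given in which, and give no compound dose beyond the administered volume. No group given corn oil alone is among the labels, so a compound given in corn oil and that oil cannot be told apart. Each library is 1 mouse. Livers were perfused and a piece of the left lateral lobe's outer part was used, and in such bulk tissue fewer cells of a type and less RNA per cell cannot be told apart.

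Both compounds become toxic only once they are metabolised, in which CYP2E1 has a leading part, and this enzyme is most abundant in the hepatocytes around the central vein. APAP is oxidised to a quinone imine that consumes glutathione and binds proteins, mitochondrial proteins among them. CCl4 is reduced to trichloromethyl radicals that start lipid peroxidation and damage the endoplasmic reticulum and the enzyme itself. Cells answer such damage through several programmes: NRF2 raises glutathione and thioredoxin enzymes, ATF4 raises amino acid transport and synthesis genes and the factor DDIT3 (CHOP), HSF1 raises cytosolic chaperones, and MTF1 raises metallothioneins. The question addressed is which of these programmes and which liver functions differ in RNA between 2 toxicants that injure the same zone.

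Promoters of 3 genes higher after CCl4 are shown first, since the genes of the ATF4 and HSF1 programmes were those that most often stood higher after CCl4. Slc7a11 among them is counted below in the NRF2 list. The sequences are RefSeq's, in build GRCm38.p6, and cover the 250 bases before the annotated gene start on the gene's strand. Capitals mark matches to TGATGNAA, the CARE element bound by ATF4 dimers, or to GAANNTTC, 2 inverted units of the heat shock element, on either strand. Nupr1, a stress-induced nuclear protein, lies at chr7:126625471-126625720 (minus strand). Slc7a11, the cystine transporter that supplies glutathione synthesis, lies at chr3:50443614-50443863 (minus strand). Hspb1, the small heat shock protein HSP27, lies at chr5:135887669-135887918 (plus strand).
Nupr1: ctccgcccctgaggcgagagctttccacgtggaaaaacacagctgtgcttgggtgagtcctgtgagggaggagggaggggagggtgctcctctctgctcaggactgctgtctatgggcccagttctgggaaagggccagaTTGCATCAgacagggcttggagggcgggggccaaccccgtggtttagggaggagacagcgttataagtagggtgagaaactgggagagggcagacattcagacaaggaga
Slc7a11: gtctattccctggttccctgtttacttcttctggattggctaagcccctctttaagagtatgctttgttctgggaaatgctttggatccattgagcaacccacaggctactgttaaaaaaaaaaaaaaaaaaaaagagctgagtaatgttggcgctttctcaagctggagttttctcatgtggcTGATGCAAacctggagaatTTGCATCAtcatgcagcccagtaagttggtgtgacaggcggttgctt
Hspb1: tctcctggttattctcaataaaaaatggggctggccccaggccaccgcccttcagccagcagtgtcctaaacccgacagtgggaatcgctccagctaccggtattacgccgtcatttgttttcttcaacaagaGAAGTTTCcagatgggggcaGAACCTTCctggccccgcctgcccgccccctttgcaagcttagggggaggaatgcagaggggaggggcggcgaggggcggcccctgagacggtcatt

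Over windows of 250 bases before to 50 after the start, 38.9% of the 18 ATF4 list genes with a promoter held TGATGNAA, against 4.51% of 27025 genes. The heat shock match was found in 64.3% of 14 cytosolic heat shock genes and 9.04% of all. TGACNNNGC, the core of the antioxidant response element, was found in 42.9% of 21 NRF2 list genes and 14% of all. The metal response element core was searched as TGCNCNC, which 53.6% of all genes hold, so its presence in 8 of 8 metallothionein list genes with a promoter says little. All 4 motifs were searched on both strands. A match is a description of these letters and not a bound site. Hspb1, Hspd1 and Hspe1, higher after CCl4, held a heat shock match, as did Hspa1a, higher after APAP. Ahsa1 and Stip1, higher after CCl4, held none. Of the ATF4 list genes higher after CCl4 and named below, Nupr1, Trib3 and Asns held TGATGNAA, and Ddit3, Psat1, Phgdh, Mthfd2 and Slc3a2 did not. Whether a match bears on the direction of a difference was not tested.

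Estimated counts summed to 16913744 to 24716360 per APAP library and 15695791 to 27212163 per CCl4 library. Values below are CPM, estimated counts per 1000000 on 1 scale for all 28 mice (TMM, a trimmed mean of ratios). One library stood apart before any test: APAP mouse 1 had a median correlation of 0.884 with the other APAP mice, whose own medians were 0.924 to 0.937, against 0.958 to 0.969 among CCl4 mice. Results that rest on this mouse are given with and without it. The other APAP mice were split as well. Mice 8 and 11 correlated at 0.968 and mice 2, 4 and 6 at 0.964 to 0.969 with each other, against 0.914 to 0.937 across these sets. APAP mouse 2 had a median correlation of 0.935 with the CCl4 mice and 0.933 with the APAP mice, while every other APAP mouse was nearer to its own group. No label gives a reason for the split. Where leaving out a single mouse ended the call of a named gene or moved it by over 1.5-fold, the highest adjusted p or the value farthest away is given with that mouse, which applies to 22 and 34 of the 131 called genes tested this way. The APAP mice also differed more among themselves than the CCl4 mice, with a median SD per gene of 0.41 on the log2 scale (0.30 without mouse 1) against 0.25. Mitochondrial transcripts made up 14.2% ± 3.57 (SD, n = 6) of the counts after APAP and 11.6% ± 1.78 (SD, n = 7) after CCl4, a difference of 2.60 percentage points (two-sided exact permutation test over 1716 divisions, p = 0.128, smallest possible 0.00117). Without APAP mouse 8 the difference was 3.61 (exact permutation p = 0.0303), and over the mice numbered above 4 alone it was 0.50 (exact permutation p = 0.81).

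Of 14023 genes tested, 3231 (23.0%) differed between the toxicants at an adjusted p under 0.05, which is the meaning of called below. The higher group was APAP for 1738 (12.4%) and CCl4 for 1493 (10.6%). Log2 fold changes are APAP minus CCl4 throughout, so that a negative value is a higher level after CCl4. Scaling by library total gave 4039 called genes (28.8%), split into 628 higher in APAP (4.48%) and 3411 higher in CCl4 (24.3%). That scaling moves the median of all genes from 0.06 to -0.34, so the balance of the directions depends on it, and list medians are best read against 0.06. Without APAP mouse 1, 4381 of 14371 genes were called (30.5%), with 15.6% of genes higher in APAP and 14.8% higher in CCl4.

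Called genes that also differed between the vehicles in the same direction, Ctrl against CIP at an unadjusted p under 0.05, were set aside. The vehicles gave 570 such genes of 15219 (3.75%), and 2 genes (0.0131%) at an adjusted p under 0.05. The rule removed 45 called genes, among them the lipase inhibitor G0s2 and the mitochondrial genes mt-Nd1, mt-Nd2, mt-Nd5 and mt-Atp8. For 120 called genes the vehicles were not tested because counts were too low, and these were retained. There remained 3186 genes (22.7%), 1713 higher in APAP (12.2%) and 1473 higher in CCl4 (10.5%). Of these, 1495 (10.7% of genes tested) differed by a log2 fold change of at least 1. The 6 and 7 mice did not overlap in 1388 genes (9.9% of genes tested), 1344 of them retained. Without APAP mouse 1, 3005 of the 3186 genes were called in the same direction. When the vehicle of each route was instead subtracted in 1 fit, 1134 of 16948 genes were called (6.69%), 3.61% higher in APAP and 3.08% in CCl4, and 1032 of the genes called directly were among them in the same direction. With only 1 CIP mouse that number was 173 without CIP mouse 8 and 380 without CIP mouse 7. Of the 131 called genes examined one by one, 62 were not called in that fit. Besides those given with their values below, they include Gstp1, Ccnd1, Fam83a, Sphk1, Sh2d6, Wincr1, Atp13a4, Mt3, Eda2r, Ddit4, Herpud1, Canx, Fosl1, Mcm7, Pnpla3, Hmgcs1, Slc27a5, Tdo2, Ddc, Stat2, Eno1, Bcl2l1, Cps1, Retnlg, Fabp5, Hba-a2, Pf4, Pck1, G6pdx, Asns, Phgdh, Pdia6, Hspa8, Cryab, Fos, Mcm6, Acaca, Cth, Socs3, Ccl9, Bst2, Gsdmd, Casp8, Marco, Trem2 and Stab2. In 28 of the 62 the fold was at least as large as in the direct test, for example Junb (2.61, adjusted p = 0.062), and in 34 smaller. The standard error was larger in 62, with a median of 0.67 against 0.40, so a lost call does not show that the vehicles account for a difference. By list, that fit called 10 heat shock, 9 ATF4 and 6 NRF2 genes higher in CCl4, and 9 secreted protein, 7 fat oxidation, 6 acute phase and 4 periportal genes higher in APAP. The direct calls of the endoplasmic reticulum chaperone, cholesterol, interferon-stimulated, mitochondrial genome, cell death, circadian, repair macrophage, neutrophil, erythroid and platelet lists were all lost in it. Below, a pair of counts in brackets after a list gives its calls higher in APAP and then in CCl4, before the vehicle rule, under 3 alternatives of the whole table, where either count moved by over 1.5 times: without APAP mouse 1, with library-total scaling, and with the number range as a covariate (replicate numbers up to 4 or above 4, a possible batch that no label names). Under the number range 11.4% of all genes were called higher in APAP and 9.81% in CCl4.

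Against the vehicle of its own route, APAP changed 4436 of 13939 genes (31.8%), 17.3% up and 14.6% down. CCl4 changed 5152 of 15365 against the 2 CIP mice (33.5%), 18.0% up and 15.6% down, and 7582 of 14209 (53.4%) against all 17 vehicle mice of the series. CIP mouse 8 stood apart in pancreatic acinar markers, which summed to 261 CPM in it, to 40.9 in CIP mouse 7 and to 9.03 to 50.1 in the APAP, CCl4 and Ctrl mice. Without it 3015 genes were called after CCl4, and 3823 without CIP mouse 7, in fits that take the lone CIP mouse to vary like the CCl4 mice. Of the 112 genes examined that were called against CIP, 21 lost their call without mouse 8 and 23 without mouse 7, and no sign turned. Among those given with a value against CIP below, these were Nqo1 without mouse 8 and Ddit4 without mouse 7. Of the 1713 retained genes higher in APAP, 475 were above Ctrl after APAP and not changed against CIP after CCl4, 469 were below CIP after CCl4 and not changed after APAP, and 325 were below in both. Of the 1473 higher in CCl4, 803 were above CIP after CCl4 only, 243 above in both, and 139 below Ctrl after APAP only. In 63 genes APAP was above and CCl4 below its vehicle, and in 26 the reverse.

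**Figure D1:**
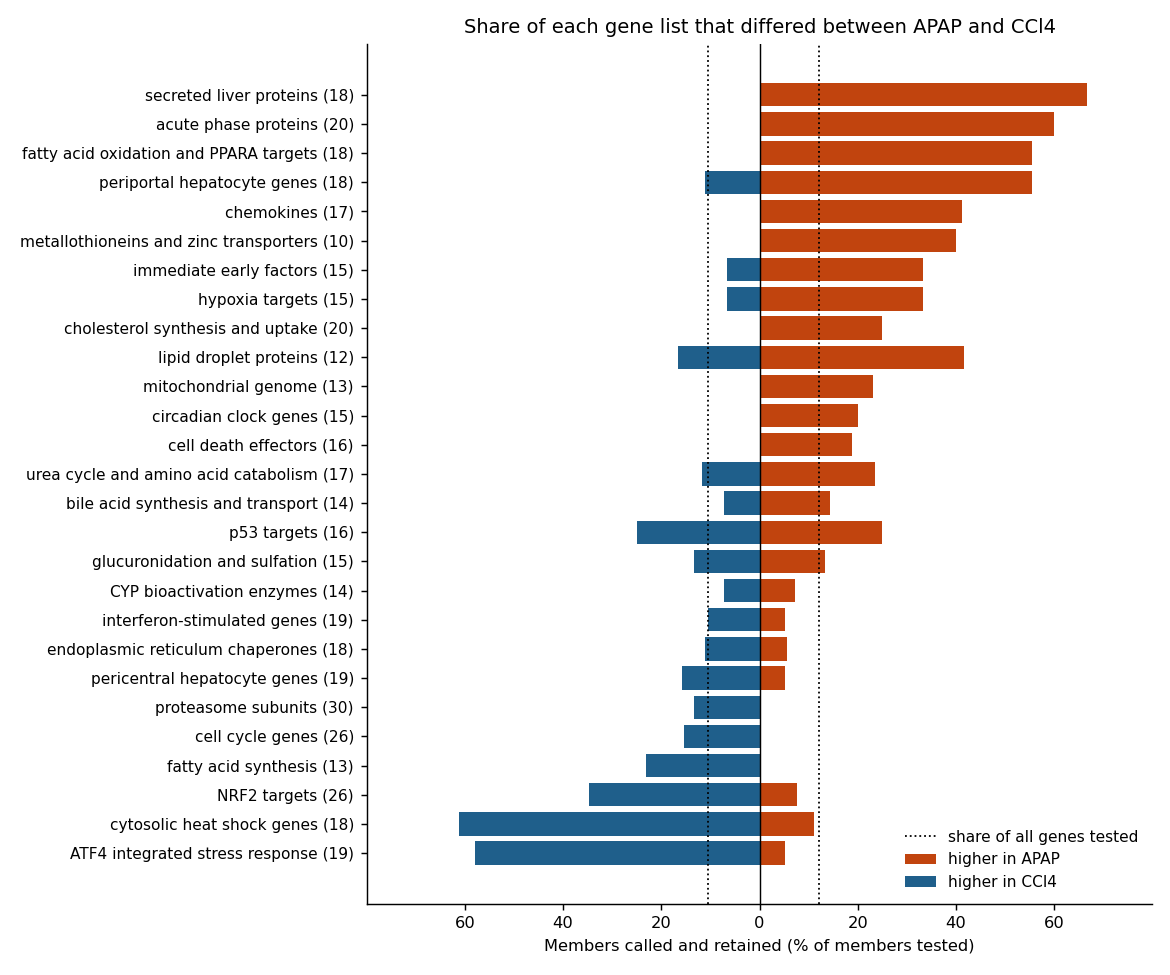
Each bar is the percentage of a list's tested members (number in brackets) that were called between APAP and CCl4 and retained, to the right where higher in APAP and to the left where higher in CCl4; dotted lines mark the 12.2% and 10.5% of all genes tested. ATF4, heat shock and NRF2 genes extend to the left, and secreted proteins, acute phase proteins, fatty acid oxidation and periportal genes to the right.

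The cytochrome that activates both compounds was not called between them with all 13 mice, and its level differed widely among the APAP mice. Cyp2e1 was at 2849, 573, 398, 1231, 22.6 and 29.2 CPM in APAP mice 1, 2, 4, 6, 8 and 11, and at 149 to 304 CPM (median 246) after CCl4. Mouse 1 lay within the range of the 13 Ctrl mice (1933 to 3723 CPM), while mice 8 and 11 lay below every CCl4 mouse. The difference was 1.80 (adjusted p = 0.12), and without APAP mouse 8 it was called (2.06, adjusted p = 0.044). Against the vehicles the values were -1.76 (adjusted p = 0.044) for APAP and -3.46 (adjusted p = 6.1e-06) for CCl4. Cyp1a2, another APAP-oxidising enzyme, was at 147, 266, 101, 266, 3.27 and 3.91 CPM in the same order of APAP mice and at 324 to 702 CPM (median 461) after CCl4, again not called (-1.90, adjusted p = 0.095). It was called with library-total scaling (-2.31, adjusted p = 0.039) and by limma (-3.15, adjusted p = 0.026). Cyp3a11, which also oxidises APAP, was at 632, 753, 771, 729.5, 29.2 and 25.2 CPM in that order and 246 to 584 CPM (median 374) after CCl4 (0.27, adjusted p = 0.8). In all 3 genes APAP mice 8 and 11 had the lowest values of their group. Of the 14 bioactivation enzymes tested, 1 was higher in APAP and 1 in CCl4 (0 and 2 with library-total scaling, 0 and 1 with the number range). The latter was Cyp2b10, the classical target of the receptor CAR, at 2.36 to 9.31 CPM (median 5.85) after APAP and 62.9 to 120.5 CPM (median 81.5) after CCl4, with no overlap (log2 fold change -3.82, standard error 0.29, adjusted p = 2.0e-06). It was below Ctrl after APAP (-2.50) and above CIP after CCl4 (1.14).

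Pericentral genes were below the vehicles after both compounds, 14 after APAP and 13 after CCl4, and 4 were called between them. Of 19 tested, 1 was higher in APAP and 3 in CCl4 (2 and 6 without mouse 1, 1 and 8 with library-total scaling). Their median was -0.35, log2 fold change -0.70 without mouse 1. Lgr5, a receptor that amplifies WNT signals at the central vein, was at 0.0445 to 0.356 CPM (median 0.18) after APAP and 0.525 to 0.72 CPM (median 0.595) after CCl4, below the 1.32 to 4.22 CPM of Ctrl in both (log2 fold change -1.72, standard error 0.36, adjusted p = 0.0039). The neutral amino acid transporter Slc1a4 was higher after CCl4 at -3.09 (adjusted p = 3.5e-04, log2 fold change -3.72 without APAP mouse 11). Glul, glutamine synthetase of the innermost hepatocyte layer, was called higher in APAP (log2 fold change 3.21, standard error 0.88, adjusted p = 0.018), a value that mouse 1 sets. It was at 1112 CPM in that mouse, at 26.8 to 58.5 in the other 5, at 17.3 to 28.6 after CCl4 and at 356 to 705 in Ctrl. Without mouse 1 the difference was 0.70 (adjusted p = 0.017). The call was lost with the number range as a covariate, at 1.53 (adjusted p = 0.25), and by limma, at 1.45 (adjusted p = 0.15). Mouse 1 was above every Ctrl mouse, and the other 5 APAP mice and all CCl4 mice were below every Ctrl mouse.

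Periportal genes, by contrast, were mostly higher after APAP than after CCl4, though many were below the vehicles after both. Of 18 tested, 10 were higher in APAP and 2 in CCl4 (5 and 3 with library-total scaling, 8 and 1 with the number range), with a median of 0.96. After APAP 9 were below Ctrl and 2 above, and after CCl4 15 were below CIP and none above. Sds, serine dehydratase, was at 167 to 1404 CPM (median 257) after APAP and 64.0 to 104 CPM (median 70.2) after CCl4, with no overlap (log2 fold change 2.59, standard error 0.45, adjusted p = 0.0012, log2 fold change 1.75 without mouse 1). The gluconeogenic enzyme Pck1 was higher in APAP at 1.58 (adjusted p = 0.013, adjusted p of 0.0517 with library-total scaling). Cps1, which starts the urea cycle, was an exception and was lower in APAP at -0.52 (adjusted p = 0.027, adjusted p up to 0.069 without CCl4 mouse 1 and lost without any 1 of 4 mice).

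Genes of the NRF2 programme differed in both directions, and the largest differences were higher in CCl4. Of 26 tested, 9 were higher in CCl4 and 2 in APAP (1 and 14 with library-total scaling). Slc7a11 was at 15.9 to 34.5 CPM (median 22.9) after CCl4 and at 0.158 to 4.08 CPM (median 0.366) after APAP, while it was at 0 in both CIP mice and at most 0.0929 CPM in Ctrl. The highest APAP value, 4.08 CPM, was mouse 1, and the groups did not overlap (log2 fold change -4.81, standard error 0.72, adjusted p = 4.3e-04, log2 fold change -6.20 without mouse 1). With the vehicles subtracted it was not called, at -6.42 (adjusted p = 0.16). Srxn1, sulfiredoxin, which restores oxidised peroxiredoxins, was at 643 to 1005 CPM (median 727) and 58.5 to 529 CPM (median 78.8), mouse 1 again being the highest at 529 (log2 fold change -2.28, standard error 0.50, adjusted p = 0.0053, log2 fold change -3.22 without mouse 1). Both compounds raised it over the vehicle, by 2.34 after APAP and 4.94 after CCl4. Abcc4, an exporter of the hepatocyte's blood side, was at 38.8 to 61.7 CPM (median 50.2) against 0.682 to 7.67 CPM (median 5.3), a log2 fold change of -3.50 (standard error 0.50, adjusted p = 3.1e-04). Its relative Abcc3 differed the other way (0.99, adjusted p = 0.0011): after APAP it was not called against Ctrl (-0.03, adjusted p = 0.88), and it was below CIP after CCl4 (-0.98, adjusted p = 3.3e-04).

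Enzymes of NADPH supply were in the same list. Me1, malic enzyme, was -1.74 (adjusted p = 2.1e-06) and Pgd, phosphogluconate dehydrogenase, -1.07 (adjusted p = 2.4e-04), both higher in CCl4. G6pdx, the first enzyme of the pentose phosphate route, was higher in APAP at 0.95 (adjusted p = 0.0071, adjusted p of 0.12 with library-total scaling). Gstm3 and Ugdh, of glutathione and glucuronic acid conjugation, were higher in CCl4 at -3.38 (adjusted p = 3.7e-04) and -1.78 (adjusted p = 6.3e-05). Gstp1, a further glutathione transferase, was -0.42 (adjusted p = 0.018), and Gsta1 was not called (-0.70, adjusted p = 0.0511), though it was with library-total scaling (-1.04, adjusted p = 0.016) and by limma (-0.81, adjusted p = 0.023). The genes of glutathione synthesis itself were not called: Gclm was at 445 to 542 CPM after APAP and 390.3 to 479 after CCl4 (0.17, adjusted p = 0.2), and Gclc was -0.59 (adjusted p = 0.15). Leaving out mouse 1 gave -0.90 (adjusted p = 0.0083) for Gclc. Nqo1 (0.39, adjusted p = 0.17) and Hmox1 (1.13, adjusted p = 0.13), textbook NRF2 targets, were not called either, and both were above the vehicle after each compound, Nqo1 by 0.87 and 0.83 and Hmox1 by 2.52 and 1.59 for APAP and CCl4. Txnrd1, thioredoxin reductase, was at 389, 54.9, 47.1, 51.5, 78.8 and 59.7 CPM in APAP mice 1, 2, 4, 6, 8 and 11 and at 125 to 159 after CCl4. It was not called with mouse 1 (-0.29, adjusted p = 0.69) and was called without it (-1.25, adjusted p = 6.4e-05).

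The ATF4 list stood higher after CCl4 in most of its members. Of 19 tested, 11 were higher in CCl4 and 1 in APAP, with a median of -1.31 against 0.06 over all genes. Against the vehicles, 15 were above CIP after CCl4 and 12 above Ctrl after APAP, so both compounds raised part of the list. Nupr1, whose promoter is printed above, was at 254 to 615 CPM (median 431) after CCl4 and 3.65 to 22.8 CPM (median 8.15) after APAP (log2 fold change -5.32, standard error 0.46, adjusted p = 6.9e-06). The lowest CCl4 mouse was above the highest APAP mouse. Ctrl mice had 0.748 to 3.68 CPM, and the differences from the vehicles were 2.55 (adjusted p = 2.8e-05) for APAP and 7.35 (adjusted p = 1.2e-05) for CCl4.

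Ddit3, which encodes the factor CHOP, was at 256 to 451 CPM (median 329) after CCl4 and at 89.8, 71.2, 19.3, 24.4, 4.69 and 6.61 CPM in APAP mice 1, 2, 4, 6, 8 and 11 (log2 fold change -3.22, standard error 0.61, adjusted p = 0.0022). APAP mice 8 and 11 lay within the 4.24 to 15.5 CPM of Ctrl. Trib3, a pseudokinase induced by CHOP and ATF4, was at 61.5 to 85.3 CPM (median 75.0) against 4.25 to 12.5 CPM (median 9.05), a log2 fold change of -3.09 (standard error 0.25, adjusted p = 3.6e-06), and APAP was not called against Ctrl (0.59, adjusted p = 0.23). The transporter subunits were also higher in CCl4. Slc3a2, the heavy chain that carries the Slc7a11 protein, was at 301 to 491 CPM (median 351) and 50.7 to 119 CPM (median 54.2), a log2 fold change of -2.33 (standard error 0.23, adjusted p = 2.1e-05), and Slc7a5, its partner for large neutral amino acids, was -2.60 (adjusted p = 0.0011, log2 fold change -3.32 without APAP mouse 1). Serine synthesis and mitochondrial folate genes followed, with Phgdh at -3.53 (adjusted p = 4.7e-04, log2 fold change -4.18 without APAP mouse 1), Psat1 at -1.31 (adjusted p = 2.9e-04) and Mthfd2 at -2.01 (adjusted p = 9.9e-06). Asns, asparagine synthetase, was -0.94 (adjusted p = 0.0468, adjusted p up to 0.092 without APAP mouse 11 and lost without any 1 of 10 mice, adjusted p of 0.085 with the number range). The exception was Ddit4, an inhibitor of mTORC1, which was higher in APAP at 1.61 (adjusted p = 0.018, adjusted p of 0.069 by limma) and below CIP after CCl4 (-1.17).

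Mouse 1 decided some of the calls that were missed. Atf3 was at 488 CPM in this mouse, at 3.79 to 13.2 in the other APAP mice and at 100.3 to 213 after CCl4. The difference was -0.86 (adjusted p = 0.58) with it and -4.22 (adjusted p = 3.8e-06) without it. Chac1, which degrades glutathione, moved from -0.76 (adjusted p = 0.49) to -2.12 (adjusted p = 0.014). Without mouse 1, 14 of the 19 were higher in CCl4. Atf4 itself was at 46.5 to 301 CPM after APAP and 105 to 141 after CCl4 and not called (-0.08, adjusted p = 0.89). It was called without mouse 1 (-0.67, adjusted p = 0.011). Gdf15, a stress hormone, was not called (-0.12, adjusted p = 0.84), and was in mice numbered above 4 (-1.22, adjusted p = 0.0072). Fgf21, a secreted hormone of this programme, did not pass the test either (0.56, adjusted p = 0.11), and was above the vehicle after both compounds, at 2.73 and 2.27.

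**Figure D2:**
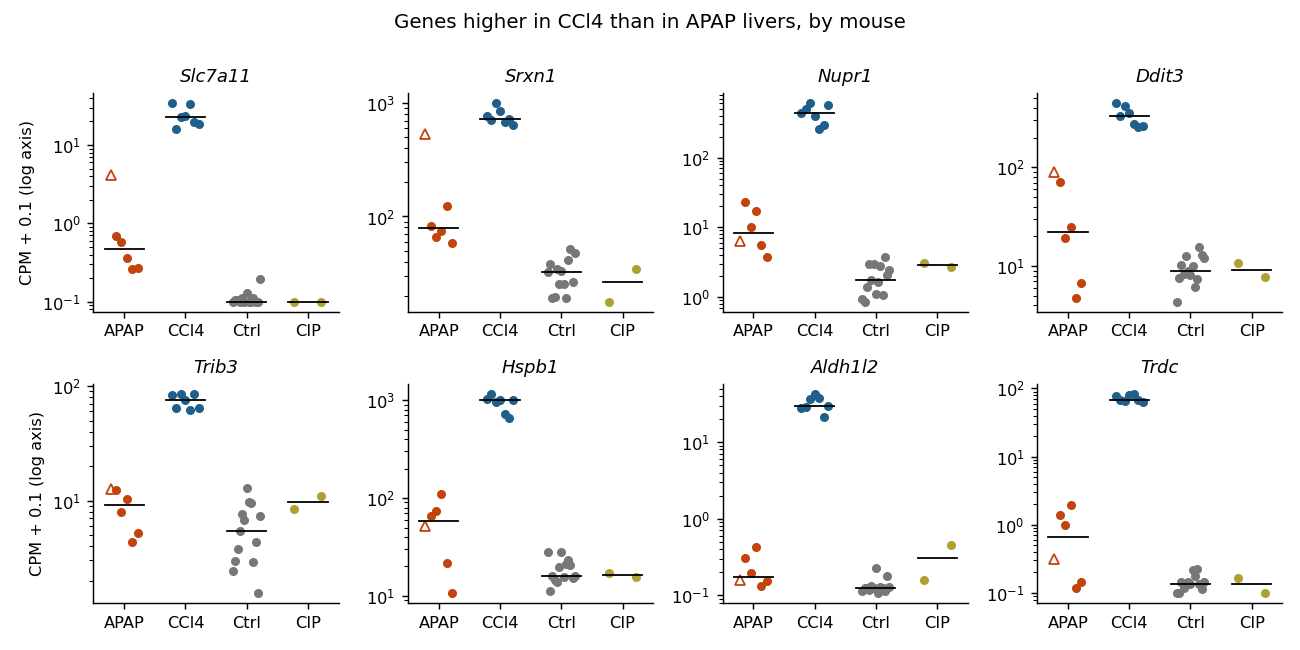
CPM + 0.1 on a log axis of 8 genes in each APAP, CCl4, Ctrl and CIP mouse (points; open triangle, APAP mouse 1; black lines, group medians). In each of the 8 genes the 7 CCl4 mice lie above the 6 APAP mice, and mouse 1 is the APAP value nearest to CCl4 for Slc7a11, Srxn1, Ddit3 and Trib3.

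Heat shock genes differed in the same direction. Their list, drawn up for cytosolic chaperones, also holds Hspd1 and Hspe1 of mitochondria and Serpinh1 of the endoplasmic reticulum. Of 18 tested, 11 were higher in CCl4 and 2 in APAP (1 and 14 without mouse 1, 1 and 13 with library-total scaling, 1 and 13 with the number range), with a median of -1.38. CCl4 raised 14 of them over CIP and APAP 5 over Ctrl. Hspb1 was at 649 to 1155 CPM (median 993) after CCl4 and 10.6 to 109 CPM (median 58.5) after APAP, with Ctrl at 11.0 to 28.3 (log2 fold change -4.07, standard error 0.45, adjusted p = 4.6e-05). Hsp90aa1, the inducible HSP90, was at 256 to 702 CPM (median 355) and 45.2 to 156 CPM (median 58.6), a log2 fold change of -2.53 (standard error 0.35, adjusted p = 2.3e-04), and APAP was not called against Ctrl (0.30, adjusted p = 0.57). The HSP90 helpers Ahsa1 (-1.38, adjusted p = 6.1e-06) and Stip1 (-1.50, adjusted p = 4.2e-05) and the mitochondrial chaperonin pair Hspd1 (-1.04, adjusted p = 4.5e-04) and Hspe1 (-1.52, adjusted p = 4.2e-05) were also higher in CCl4. Hspa8, the constitutive HSP70, was at 3637 CPM in APAP mouse 1 and at 355 to 648 in the others, against 2070.4 to 3422 after CCl4. It was -1.44 (adjusted p = 0.0475, adjusted p up to 0.094 without APAP mouse 6 and lost without any 1 of 12 mice) with mouse 1 and -2.43 without it.

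Inducible HSP70 did not follow. Hspa1a was at 17.8, 7.37, 4.94, 10.3, 0.253 and 0.254 CPM in APAP mice 1, 2, 4, 6, 8 and 11 and at 0.225 to 1.99 CPM (median 0.697) after CCl4, and so was higher in APAP although mice 8 and 11 were at the low end of CCl4 (log2 fold change 2.87, standard error 0.84, adjusted p = 0.025). Without mouse 1 it was 2.30 (adjusted p = 0.0502). It was not called with the vehicles subtracted, at 2.00 (adjusted p = 0.31), by limma, at 1.51 (adjusted p = 0.088), or with the number range as a covariate, at 2.37 (adjusted p = 0.1). Its near-identical copy Hspa1b was not called (1.58, adjusted p = 0.14), and counts of the 2 genes may be split between them. Cryab, a small heat shock protein, was higher in APAP at 1.22 (adjusted p = 0.0059, adjusted p of 0.0526 with library-total scaling). Bag3, which binds HSP70, was not called (-0.13, adjusted p = 0.87), and was called without mouse 1 (-1.06, adjusted p = 0.0024). Of 18 endoplasmic reticulum chaperones, 2 were higher in CCl4 (Pdia6 at -0.70, adjusted p = 0.0015, Canx at -1.09, adjusted p = 0.041, adjusted p up to 0.092 without CCl4 mouse 1 and lost without any 1 of 8 mice) and 1 in APAP (Herpud1 at 1.59, adjusted p = 0.0498, log2 fold change 0.66 without APAP mouse 1, adjusted p up to 0.18 without APAP mouse 1 and lost without any 1 of 11 mice, adjusted p of 0.13 with library-total scaling, 0.41 with the number range and 0.25 by limma). The alternatives raised the CCl4 count (0 and 8 without mouse 1, 0 and 9 with library-total scaling, 0 and 5 with the number range).

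Metallothionein genes Mt1, Mt2 and Mt3 were higher after APAP, Mt1 most of all in mice 1, 8 and 11. Mt1, a zinc- and copper-binding protein, was at 20476, 379, 520.3, 550.1, 7859.6 and 5844 CPM in APAP mice 1, 2, 4, 6, 8 and 11, at 227 to 376 CPM (median 282) after CCl4 and at 68.5 to 738 CPM (median 163) in Ctrl. The lowest APAP mouse was just above the highest CCl4 mouse (log2 fold change 4.36, standard error 0.85, adjusted p = 0.0026, log2 fold change 3.41 without mouse 1). Mt2 gave log2 fold change 4.60, standard error 0.90, adjusted p = 0.0027, log2 fold change 3.57 without mouse 1, and was not called with the vehicles subtracted, at 3.39 (adjusted p = 0.092). Against the vehicles, Mt1 was 4.96 (adjusted p = 1.7e-05) after APAP and 1.68 (adjusted p = 9.9e-04) after CCl4. Mt3, mostly known from brain, was at 0.97 to 19.0 CPM after APAP and at 0 in 4 of 7 CCl4 mice (4.76, adjusted p = 0.0075, log2 fold change 6.00 without CCl4 mouse 5). Slc39a14, a zinc and iron importer of the acute phase, was higher in APAP at 2.65 (adjusted p = 0.014, adjusted p of 0.079 with the number range and 0.086 by limma), log2 fold change 1.15 without mouse 1. No other member of the 10 tested was called (4 and 1 with library-total scaling).

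Of 16 p53 targets, 4 were higher in APAP and 4 in CCl4, and the alternatives moved this balance towards CCl4 (4 and 7 without mouse 1, 1 and 8 with library-total scaling). Btg2, an antiproliferative early target, was higher in APAP at 2.13 (adjusted p = 0.0028), and Eda2r, a death receptor, higher in CCl4 at -1.64 (adjusted p = 0.0063). Cdkn1a (p21), the main cell cycle inhibitor, was at 286, 41.9, 43.3, 32.6, 117 and 96.9 CPM in APAP mice 1, 2, 4, 6, 8 and 11 and 47.5 to 76.0 after CCl4, and was not called (0.78, adjusted p = 0.21). It was above the vehicle by 2.86 after APAP and 2.01 after CCl4. Mdm2, the p53 ligase, was not called (-0.65, adjusted p = 0.078), but was without mouse 1 (-0.93, adjusted p = 0.0034) and with library-total scaling (-1.14, adjusted p = 0.0016). Of 26 cell cycle genes, 4 were higher in CCl4 and none in APAP (0 and 8 with library-total scaling). They were Mcm6 and Mcm7 of the replicative helicase (-0.87, adjusted p = 0.025, adjusted p up to 0.053 without APAP mouse 11 and lost without any 1 of 3 mice, and -1.08, adjusted p = 0.0012), Ccnd1, cyclin D1 (-0.83, adjusted p = 0.012), and Rrm2 of ribonucleotide reductase (-0.81, adjusted p = 0.028, adjusted p up to 0.058 without CCl4 mouse 8 and lost without any 1 of 6 mice, adjusted p of 0.088 with the number range). Ccnd1 was above the vehicle after both compounds, by 1.20 and 1.90. Mki67, the proliferation marker, stayed at or under 1.96 CPM in all 13 mice (-0.20, adjusted p = 0.85). In the proteasome, 4 of 30 subunits were higher in CCl4, such as Psmc2 at -0.78 (adjusted p = 1.4e-04), and none in APAP (0 and 7 without mouse 1, 0 and 17 with library-total scaling). That share is near the 10.5% of all genes, while with library-total scaling 24.3% of all genes were called higher in CCl4.

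Immediate early factors were called mainly higher in APAP, a balance that mouse 1 sets, with 5 of 15 called in that direction and 1 in the other (4 and 4 without mouse 1, 4 and 2 with library-total scaling, 1 and 1 with the number range). Junb was at 35.7 to 296 CPM (median 52.8) after APAP and 13.2 to 26.6 CPM (median 22.1) after CCl4 (log2 fold change 2.27, standard error 0.47, adjusted p = 0.0039, log2 fold change 1.52 without mouse 1). Fos was 2.03 (adjusted p = 0.008, adjusted p of 0.077 with the number range), or 0.83 (adjusted p = 0.13) in mice numbered above 4, while Ctrl mice ranged from 0.611 to 44.4 CPM. Fosl1, the FOS relative FRA-1, was the exception at -2.06 (adjusted p = 0.012), and was at most 0.255 CPM in Ctrl. Among 16 cell death genes, Casp8 (0.69, adjusted p = 0.004, adjusted p of 0.2 with library-total scaling), Gsdmd (0.64, adjusted p = 0.022, adjusted p up to 0.0536 without APAP mouse 6, adjusted p of 0.39 with library-total scaling) and Bcl2l1 (1.17, adjusted p = 0.036, adjusted p up to 0.074 without APAP mouse 8 and lost without any 1 of 8 mice, adjusted p of 0.12 with library-total scaling, 0.087 with the number range and 0.11 by limma) were higher in APAP and none in CCl4, and with library-total scaling none was higher in APAP and 1 in CCl4.

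Fat oxidation genes were higher after APAP than after CCl4, and the fat synthesis genes gave fewer calls, with more of them without mouse 1. Of 18 oxidation and PPARA target genes, 10 were higher in APAP and none in CCl4 (7 and 1 with library-total scaling), with a median of 0.91. Most of this list was below the vehicles after both compounds. After APAP 10 were below Ctrl and 3 above, and after CCl4 13 were below CIP and none above. Cpt1a, which commits fatty acids to mitochondrial oxidation, was at 102 to 203 CPM (median 162) after APAP and 36.9 to 55.3 CPM (median 49.8) after CCl4, with Ctrl at 77.8 to 174 (log2 fold change 1.75, standard error 0.17, adjusted p = 1.5e-05). The receptor Ppara itself was at 60.9 to 101 CPM (median 76.3) and 16.0 to 34.2 CPM (median 28.4), a log2 fold change of 1.55 (standard error 0.17, adjusted p = 5.1e-05). Neither was called against Ctrl after APAP (0.32, adjusted p = 0.13, and 0.33, adjusted p = 0.082), and both were below CIP after CCl4 (-1.35, adjusted p = 1.9e-04, and -1.16, adjusted p = 0.0029). Vnn1, a PPARA-induced pantetheinase, was higher in APAP at 2.24 (adjusted p = 2.7e-04). Angptl4, a secreted inhibitor of lipoprotein lipase, was above Ctrl after APAP (2.06, adjusted p = 0.0019) and higher than after CCl4 (2.70, adjusted p = 0.0022).

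Of 13 fatty acid synthesis genes, none was higher in APAP and 3 were higher in CCl4 (2 and 5 without mouse 1, 1 and 3 with the number range). The 3 were Elovl6 (-2.47, adjusted p = 0.0014), Acacb (-1.35, adjusted p = 0.0021) and Acaca (-0.71, adjusted p = 0.028, adjusted p up to 0.074 without CCl4 mouse 1 and lost without any 1 of 5 mice). Elovl6, an elongase, was at 2.41 to 12.4 CPM (median 4.0) after APAP, 20.1 to 52.7 CPM (median 35.1) after CCl4 and 19.2 to 108 in Ctrl. Fasn was not called (-0.32, adjusted p = 0.7), with 461 CPM in mouse 1 and 39.8 to 108 in the other APAP mice, and was called without that mouse (-1.32, adjusted p = 0.0057). Lipid droplet genes went 5 to 2 for APAP among 12 tested. Cidec, which enlarges droplets, was at 29.9, 8.92, 6.84, 4.18, 229 and 93.9 CPM in APAP mice 1, 2, 4, 6, 8 and 11 and 2.69 to 10.3 CPM (median 6.15) after CCl4 (log2 fold change 3.37, standard error 0.83, adjusted p = 0.011, log2 fold change 2.24 without APAP mouse 8). With the vehicles subtracted it was not called, at 3.09 (adjusted p = 0.11), nor by limma, at 1.92 (adjusted p = 0.088). Both compounds raised it over Ctrl or CIP, by 6.25 and 3.17. Pnpla3, a droplet lipase relative induced by feeding signals, was higher in CCl4 (-2.95, adjusted p = 0.0056). Plin2, the general droplet coat, was not called (-0.06, adjusted p = 0.92), being 1.54 and 1.63 above the vehicles. Of 20 cholesterol genes, 5 were higher in APAP, such as Hmgcs1 (1.96, adjusted p = 0.035, adjusted p up to 0.11 without APAP mouse 11 and lost without any 1 of 9 mice, adjusted p of 0.066 with library-total scaling and 0.25 by limma), and none in CCl4 (8 and 0 without mouse 1, 0 and 0 with library-total scaling).

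**Figure D3:**
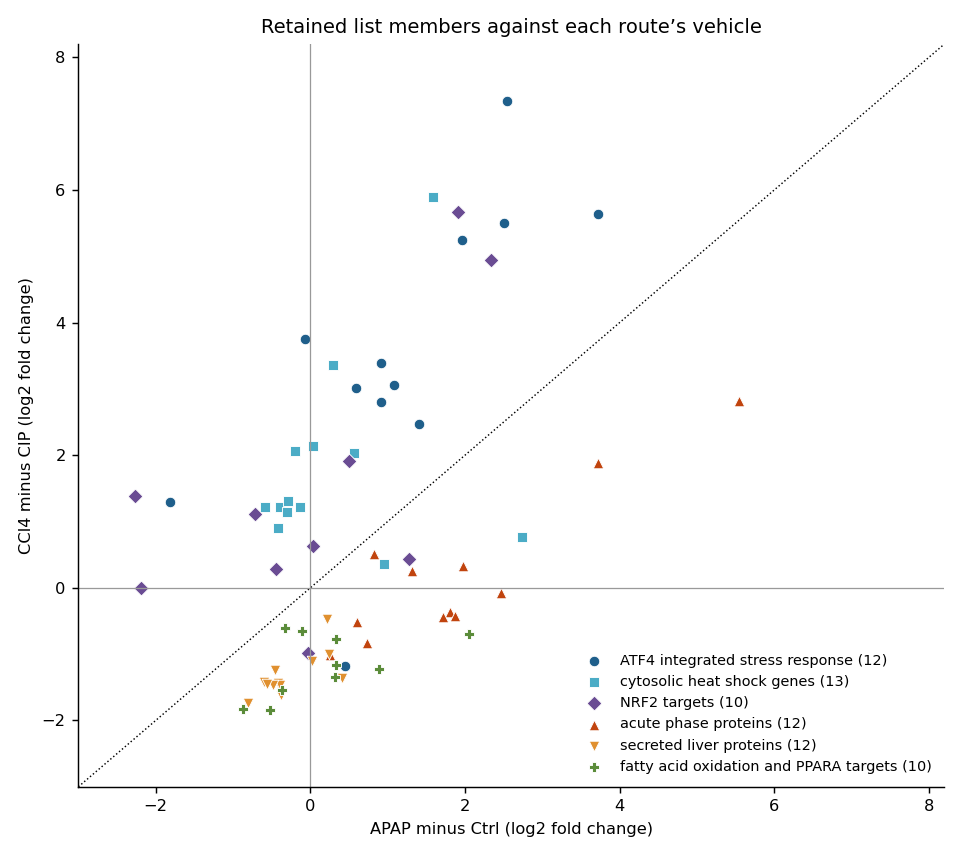
Log2 fold change of APAP against Ctrl (x) and of CCl4 against CIP (y) for the called and retained members of 6 lists, 1 point per gene; Slc7a11 is not drawn because it was not tested against Ctrl. ATF4 and heat shock points lie above the dotted line of equal change except Ddit4, Hspa1a and Cryab, and acute phase, secreted protein and fatty acid oxidation points lie below it.

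Conjugation, bile acid and amino acid genes differed little as lists. Among 15 glucuronidation and sulfation genes, the chief routes of APAP clearance, 2 were higher in APAP and 2 in CCl4 (1 and 4 with library-total scaling). Sult1a1, a phenol sulfotransferase, was at 113 to 559.7 CPM (median 209.6) and 67.0 to 104 CPM (median 89.3), a log2 fold change of 1.68 (standard error 0.38, adjusted p = 0.0064), and Ugt2b34 was higher in CCl4 at -1.71 (adjusted p = 0.0051). The bile acid list gave 2 and 1 of 14 (3 and 2 without mouse 1, 2 and 3 with library-total scaling). Baat and Slc27a5, which conjugate bile acids, were higher in APAP (1.24, adjusted p = 3.1e-05, and 1.25, adjusted p = 0.0028), and Abcc2, the canalicular exporter of conjugates, was higher in CCl4 (-1.39, adjusted p = 4.8e-04). Cyp7a1, the rate-limiting enzyme of bile acid synthesis, ranged over 0 to 20.3 and 3.05 to 72.0 CPM and was not called (-2.44, adjusted p = 0.14), though it was without mouse 1 (-3.50, adjusted p = 0.038) and by limma (-3.02, adjusted p = 0.018). Amino acid catabolism gave 4 and 2 of 17 (4 and 3 without mouse 1, 3 and 4 with library-total scaling). It had Mat1a, the hepatic methionine adenosyltransferase, higher in APAP (1.30, adjusted p = 0.0023) and Cth, which makes cysteine, higher in CCl4 (-1.01, adjusted p = 0.042, adjusted p up to 0.074 without CCl4 mouse 8 and lost without any 1 of 9 mice). Tdo2, which opens tryptophan breakdown, was higher in APAP (1.52, adjusted p = 0.0055) and Ddc, a decarboxylase of aromatic amino acids, in CCl4 (-1.27, adjusted p = 0.0022). After CCl4 all 17 were below CIP (15 without CIP mouse 8, 11 without CIP mouse 7) and after APAP 15 below Ctrl. The clock output Dbp was higher in APAP (3.11, adjusted p = 0.001, log2 fold change 2.46 without APAP mouse 1), as were Nr1d1 (2.00, adjusted p = 0.02, adjusted p of 0.12 with the number range and 0.067 by limma) and Per3 (1.81, adjusted p = 0.0098), and none of 15 was higher in CCl4 (3 and 2 without mouse 1, 3 and 1 with library-total scaling). With the vehicles subtracted these 3 were at 2.67 (adjusted p = 0.11), 2.57 (adjusted p = 0.12) and 1.06 (adjusted p = 0.46). Clock hour at killing was not among the labels.

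The RNAs of secreted liver proteins were higher after APAP, in 12 of 18 tested and in none the other way (median 1.01). With library-total scaling 11 of these were called higher in APAP. Albumin (Alb) was at 44625 to 59715 CPM (median 48730) after APAP and 9883 to 20976 CPM (median 16233) after CCl4 (log2 fold change 1.64, standard error 0.16, adjusted p = 2.0e-05), and Apoa1, of high-density lipoprotein, at 11996 to 20704 CPM (median 14914) and 2685 to 4612 CPM (median 3952), a log2 fold change of 2.00 (standard error 0.16, adjusted p = 3.6e-06). Alb was not called against Ctrl after APAP (0.02, adjusted p = 0.95) and was below CIP after CCl4 (-1.10, adjusted p = 0.004). Of the 18, 14 were below CIP after CCl4 and 8 below Ctrl after APAP. The clotting proteins F2 (0.86, adjusted p = 0.0026), Proc (1.10, adjusted p = 9.9e-05) and Plg (0.98, adjusted p = 0.0016) belonged to them.

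Acute phase genes, which the liver switches on under interleukin 6, were higher in APAP in 12 of 20 tested and in CCl4 in none (12 and 1 without mouse 1). The median was 1.56, log2 fold change 0.76 without mouse 1. Over the vehicles, 16 were raised by APAP and 6 by CCl4, or 4 without CIP mouse 8 and 3 without CIP mouse 7. The fibrinogen chain gene Fga was at 4889 to 14384 CPM (median 5686) after APAP, 1089 to 2082 CPM (median 1561) after CCl4 and 1437 to 2586 in Ctrl (log2 fold change 2.23, standard error 0.26, adjusted p = 7.4e-05). Fgb (2.30, adjusted p = 4.3e-05) and Fgg (2.31, adjusted p = 1.5e-04) moved with it. Lcn2, an iron-siderophore binding protein, was at 23389, 469, 375, 258, 5632 and 5656 CPM in APAP mice 1, 2, 4, 6, 8 and 11 and at 362 to 683 after CCl4, so that mice 2, 4 and 6 lay within or below the CCl4 range (log2 fold change 3.66, standard error 0.90, adjusted p = 0.01, log2 fold change 2.41 without mouse 1). Its call was lost with the vehicles subtracted, at 2.74 (adjusted p = 0.27), and by limma, at 1.95 (adjusted p = 0.14). Saa1 was not called (1.00, adjusted p = 0.36). It was at 18285 CPM in mouse 1 and at 2772, 1967, 1423, 267 and 422 in the others, and the difference without mouse 1 was -0.63 (adjusted p = 0.33). Socs3, which restrains interleukin 6 signals, was 2.73 (adjusted p = 0.018, adjusted p of 0.077 with the number range and 0.088 by limma) with mouse 1 and 1.29 without it.

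Chemokine genes were called higher in APAP in 7 of 17 and in CCl4 in none (6 and 2 without mouse 1, 3 and 0 with library-total scaling, 4 and 0 with the number range), but mouse 1 sets the size of several. Cxcl2, a neutrophil attractant, was at 994 CPM in mouse 1, at 0.158 to 6.42 in the other APAP mice and at 0.3 to 3.06 after CCl4 (log2 fold change 6.72, standard error 1.71, adjusted p = 0.012, adjusted p of 0.33 with the number range). Without mouse 1 it was 1.33 (adjusted p = 0.14), with the vehicles subtracted 5.22 (adjusted p = 0.27) and by limma 2.16 (adjusted p = 0.2). Cxcl1 was 3.73 (adjusted p = 0.011, adjusted p of 0.12 with the number range and 0.058 by limma), and 1.43 (adjusted p = 0.018) without mouse 1. Ccl9, made by myeloid cells, was 1.35 (adjusted p = 0.0012), log2 fold change 1.17 without mouse 1. Cxcl10, an interferon-induced chemokine, was not called (0.45, adjusted p = 0.78), and without mouse 1 was higher in CCl4 (-2.65, adjusted p = 0.0015). Of 19 interferon-stimulated genes, 1 was higher in APAP, Stat2 (0.79, adjusted p = 0.0071, adjusted p of 0.15 with library-total scaling), and 2 in CCl4, Bst2 among them (-0.73, adjusted p = 0.0488, adjusted p up to 0.095 without CCl4 mouse 5 and lost without any 1 of 9 mice, adjusted p of 0.0505 with the number range). Alternatives moved these counts (0 and 3 with library-total scaling, 1 and 0 with the number range). Hypoxia targets gave 5 and 1 of 15 (3 and 3 with library-total scaling, 5 and 0 with the number range), with Bnip3, of mitophagy, at 53 to 188 CPM (median 70.9) and 20.1 to 33.8 CPM (median 25.3), a log2 fold change of 1.91 (standard error 0.29, adjusted p = 4.8e-04), and the glycolytic pair Ldha and Eno1 differing in opposite directions (0.93, adjusted p = 9.3e-04, and -0.75, adjusted p = 0.042, adjusted p up to 0.082 without APAP mouse 4 and lost without any 1 of 10 mice, adjusted p of 0.056 with the number range). Of 13 mitochondrial genome genes, 7 were called higher in APAP and 3 were retained after the vehicle rule (6 and 0 without mouse 1, 1 and 1 with library-total scaling, 5 and 1 with the number range).

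**Figure D4:**
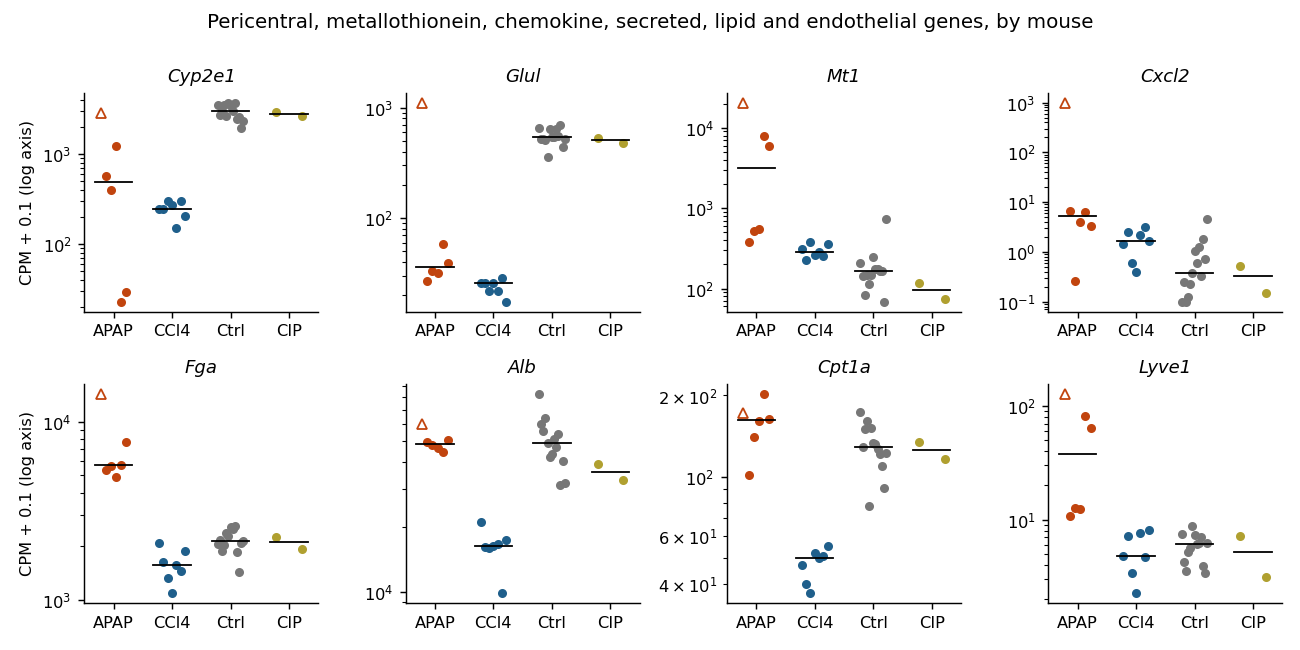
CPM + 0.1 on a log axis of 8 genes in each APAP, CCl4, Ctrl and CIP mouse (points; open triangle, APAP mouse 1; black lines, group medians). Mouse 1 is the highest APAP mouse in 7 of the 8 panels, the exception being Cpt1a, and mice 8 and 11 are the lowest for Cyp2e1; Mt1, Fga, Alb, Cpt1a and Lyve1 have no overlap between APAP and CCl4.

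Markers of several cell types differed between the groups. The 7 hepatocyte markers restate lists given above, since Alb, Ttr, Apoa1 and F2 are also secreted proteins, Cps1 is a periportal gene and Tat one of amino acid catabolism, and Alb alone, at 44625 to 59715 CPM after APAP, makes up most of their sum. They summed to 63950 to 91840 CPM after APAP, 18540 to 28790 after CCl4 and 49680 to 111400 in Ctrl, and 5 of 7 were higher in APAP and 1, Cps1, in CCl4 (3 and 1 with library-total scaling). The nuclear factor Hnf4a, the marker that no other list holds, was 0.70 (adjusted p = 8.0e-04), and with library-total scaling 0.32 (adjusted p = 0.12). Endothelial markers of the sinusoid were higher in APAP in 6 of 13, and none was higher in CCl4 (3 and 0 with library-total scaling). Their sums were 215 to 353 CPM after APAP, 124 to 171 after CCl4, 193 to 306 in Ctrl and 208 to 246 in CIP. Lyve1, a hyaluronan receptor, was at 128, 10.6, 12.6, 12.2, 81.8 and 63.6 CPM in APAP mice 1, 2, 4, 6, 8 and 11 and 2.17 to 7.95 CPM (median 4.69) after CCl4 (log2 fold change 3.30, standard error 0.62, adjusted p = 0.002). The scavenger receptors Stab1 (1.41, adjusted p = 7.2e-04) and Stab2 (0.95, adjusted p = 4.5e-04, adjusted p of 0.0539 with library-total scaling) differed likewise.

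Kupffer cell markers, of the resident macrophages, were higher in APAP in 5 of 11 (2 and 0 with library-total scaling), with sums of 435 to 769 and 209 to 510.2 CPM that overlap. Marco was at 58.7 to 261 CPM (median 129) and 18.6 to 97.2 CPM (median 68.8), against 3.29 to 25.4 in Ctrl (1.15, adjusted p = 0.043, adjusted p up to 0.088 without APAP mouse 1 and lost without any 1 of 10 mice, adjusted p of 0.17 with library-total scaling, 0.088 with the number range and 0.0526 by limma). Clec4f (0.62, adjusted p = 0.08) and Timd4 (0.06, adjusted p = 0.87), which mark the resident cells most narrowly, were not called. Clec4f was called without APAP mouse 1 (0.70, adjusted p = 0.043), without CCl4 mouse 11 (0.82, adjusted p = 0.013) and with the number range (0.83, adjusted p = 0.016). No monocyte marker of 8 was called (1 and 0 with the number range), and of the repair macrophage markers Trem2 (1.22, adjusted p = 0.018, adjusted p of 0.09 with library-total scaling) and Fabp5 (1.55, adjusted p = 0.009) were higher in APAP while Gpnmb (-1.25, adjusted p = 0.15) and Spp1 (0.69, adjusted p = 0.27) were not called. Gpnmb was called higher in CCl4 by limma (-1.50, adjusted p = 0.034). Of the 10 repair markers 2 were thus higher in APAP and none in CCl4 (2 and 1 without mouse 1, 1 and 2 with library-total scaling). Their sums were 802 to 1234 CPM (median 838) after APAP, 863 to 1362 (median 1013) after CCl4 and 328 to 647 in Ctrl. Both compounds raised most of them, 9 over Ctrl after APAP and 7 over CIP after CCl4. Among stellate cell markers 2 of 14 were higher in APAP and none in CCl4 (6 and 0 without mouse 1, 1 and 0 with library-total scaling). The stellate sums were 346 to 486 CPM after APAP, 184 to 329 after CCl4, 128 to 300 in Ctrl and 209 to 242 in CIP. Acta2, the smooth muscle actin of myofibroblasts, was at 0.49 CPM in mouse 1 and 26.0 to 106 in the other APAP mice, against 13.8 to 27.1 after CCl4. The collagen gene Col1a1 (0.33, adjusted p = 0.52) and the protease inhibitor Timp1 (0.62, adjusted p = 0.24) were not called. Acta2 was not called with mouse 1 (1.31, adjusted p = 0.14) and was called without it (1.57, adjusted p = 0.003).

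Blood cell markers varied widely among mice. Erythroid markers summed to 138 to 2528 CPM after APAP and 85.7 to 499 after CCl4, and 4 of 5 were higher in APAP, all of them globin genes whose copies share sequence (1 and 0 with the number range). APAP mice 8 and 11 had sums of 2528 and 1523 CPM, and the other 4 APAP mice 138 to 517, overlapping the CCl4 range. Hba-a2, an alpha globin gene, gave 2.48 (adjusted p = 0.041, log2 fold change 1.62 without APAP mouse 8, adjusted p up to 0.14 without APAP mouse 8 and lost without any 1 of 8 mice, adjusted p of 0.075 with the number range and 0.076 by limma). Neutrophil markers summed to 15.3 to 301 and 11.7 to 86.5 CPM, and 6 of the 11, Ly6g among them, were too low to test. Retnlg was the marker called (2.59, adjusted p = 0.033, log2 fold change 1.95 without APAP mouse 11, adjusted p up to 0.093 without APAP mouse 11 and lost without any 1 of 7 mice, adjusted p of 0.14 by limma), while S100a8 was not (1.23, adjusted p = 0.26). Platelet markers summed to 9.64 to 36.5 CPM after APAP and 4.5 to 8.5 after CCl4, with no overlap, and were tested in 2 genes. One of them, Pf4, of platelets and some macrophages, was higher in APAP (2.04, adjusted p = 0.0032). Markers of cholangiocytes, T and NK cells, B and plasma cells, mesothelial cells and pancreatic acinar cells were not called in any of the 6, 6, 4, 4 and 2 tested, apart from 1 cholangiocyte marker higher in CCl4 with library-total scaling and 1 B or plasma cell marker higher in APAP without mouse 1. With the vehicles subtracted 1 acinar marker was called higher in APAP, in a fit that includes CIP mouse 8, whose acinar sum was high. Adipocyte markers were all too low to test, with sums of at most 0.824 CPM and Lep at 0 in all 13 mice.

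**Figure D5:**
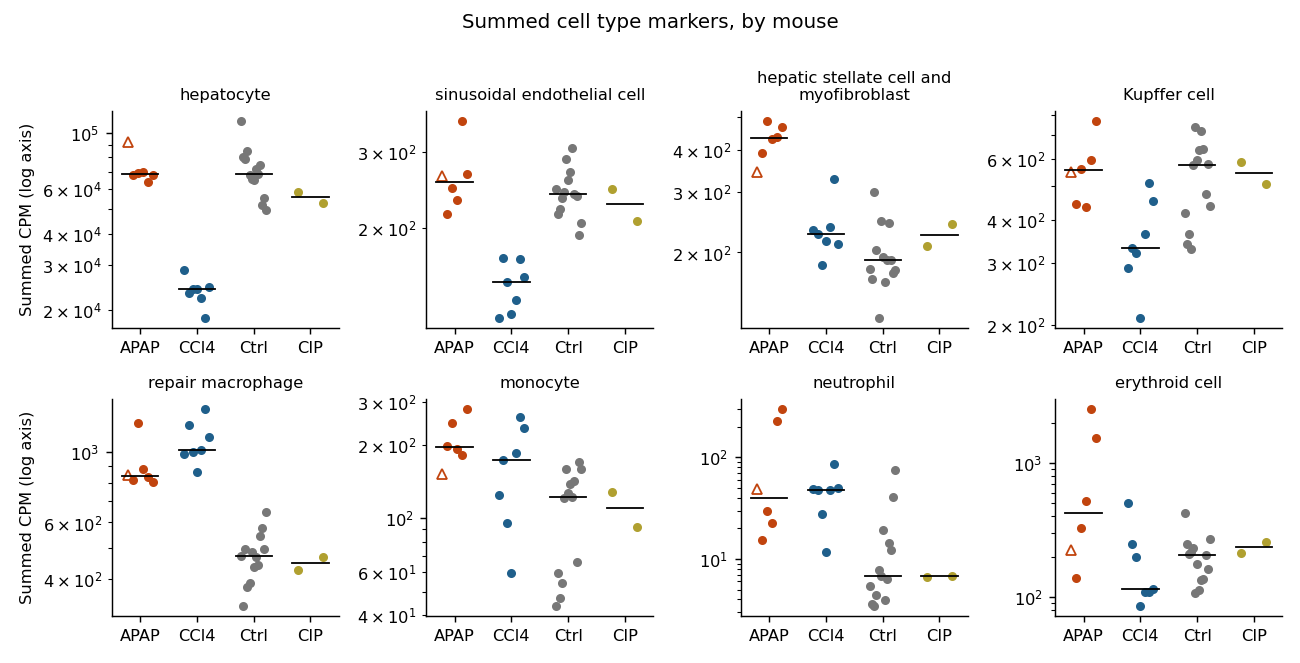
Summed CPM of the markers of 8 cell types on a log axis in each APAP, CCl4, Ctrl and CIP mouse (points; open triangle, APAP mouse 1; black lines, group medians). Hepatocyte, endothelial and stellate sums of the 6 APAP mice lie above those of the 7 CCl4 mice, and the other 5 sums overlap.

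The genes named by size were chosen among retained genes with no overlap and a mean of at least 5 CPM in the higher group, 10 in each direction. The CCl4 side was led by Aldh1l2, a mitochondrial enzyme of folate metabolism, at 21.1 to 42.5 CPM (median 29.6) after CCl4 and at most 0.332 CPM after APAP (log2 fold change -7.82, standard error 0.42, adjusted p = 1.8e-07). Trdc, the constant region of the T cell receptor delta chain, followed at 63.3 to 83.0 CPM (median 68.1) and 0.0197 to 1.84 CPM (median 0.554), a log2 fold change of -6.62 (standard error 0.70, adjusted p = 3.4e-05). Both vehicles had at most 0.123 CPM of it. T and NK cell markers summed to 2.83 to 5.69 CPM after APAP and 0.945 to 13.4 after CCl4. Cd3g, a chain that every T cell receptor needs, was at 0.14 to 1.07 CPM after CCl4 (0.41, adjusted p = 0.66). The others were Sh2d6 (-6.21, log2 fold change -7.02 without APAP mouse 2), the acyl-CoA thioesterase Acot5 (-5.80, log2 fold change -6.54 without APAP mouse 1), which has near-identical neighbours, Fam171b (-5.53), the interleukin 23 subunit Il23a (-5.35, log2 fold change -5.99 without APAP mouse 1), Nupr1, the non-coding RNA Wincr1 (-5.21, log2 fold change -5.85 without APAP mouse 11), the transport ATPase Atp13a4 (-5.17, log2 fold change -5.98 without APAP mouse 1) and the calcium exchanger Slc24a3 (-4.89). Il23a was at 9.15, 10.9, 13.3, 7.88, 2.19, 2.83 and 1.85 CPM in CCl4 mice 1, 5, 6, 8, 10, 11 and 12. Sh2d6 and Wincr1 were at 0 in every Ctrl and CIP mouse.

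On the APAP side Mt1 and Mt2 led. Socs2, a growth hormone-induced inhibitor of cytokine signals, was at 139, 4.2, 4.34, 27.1, 4.12 and 5.21 CPM in APAP mice 1, 2, 4, 6, 8 and 11 and 0.664 to 2.73 CPM (median 1.62) after CCl4 (log2 fold change 4.27, standard error 0.90, adjusted p = 0.0044, log2 fold change 2.49 without mouse 1). Nrg4, a secreted ligand of the receptor ERBB4, was at 11.5, 5.76, 5.68, 5.64, 86.6 and 47.1 CPM in the same order and 0.874 to 2.14 CPM (median 1.66) after CCl4 (log2 fold change 4.08, standard error 0.70, adjusted p = 0.0011, log2 fold change 3.22 without APAP mouse 8). The highest values were those of mice 8 and 11 for Nrg4 and of mouse 1 for Socs2. Chd9, a chromatin remodelling ATPase, was at 3735, 262, 312, 297, 3505 and 2632 CPM and 98.9 to 194 CPM (median 121), a log2 fold change of 3.84 (standard error 0.66, adjusted p = 0.0012), mice 1, 8 and 11 being far above Ctrl (61.3 to 269 CPM). The leptin receptor Lepr was at 40.3, 1.92, 30.6, 3.31, 2.53 and 9.85 CPM and 0.453 to 1.68 CPM (median 0.886), a log2 fold change of 4.04 (standard error 0.72, adjusted p = 0.0014, log2 fold change 3.43 without APAP mouse 1), and its Ctrl and CIP levels were 0.998 to 3.25 and 3.04 to 11.7 CPM. Fam83a (4.05, log2 fold change 4.67 without CCl4 mouse 10), the sphingosine kinase Sphk1 (3.88, log2 fold change 2.45 without mouse 1), the droplet protein Plin4 (3.48) and Cyp21a2-ps (3.36, log2 fold change 2.72 without APAP mouse 1), a pseudogene that may share counts with the adrenal 21-hydroxylase gene, completed the 10.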

How the data were processed

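Livers of 57 mice were profiled by stranded mRNA sequencing with single-end reads. The authors deposited estimated counts per Ensembl gene for 54307 genes. Per the submitters' processing notes, Salmon 1.6.0, R 4.1.3 and build GRCm39 were used, with no role given. Estimated counts were rounded to whole numbers. Whether they were scaled for transcript length is not given in the sources used here. CPM of different genes, also within a marker sum, may therefore not be on the same scale. Symbols came from a GENCODE M21 table (51482 IDs matched). edgeR 4.0.16 (R 4.3.3) tested APAP against CCl4 on these 13 mice alone, with TMM scaling, its filter on low counts and its quasi-likelihood test, and Benjamini-Hochberg adjusted p under 0.05 over all genes tested is called. Every adjusted p is from edgeR's test unless limma is named. The vehicle comparisons were fitted separately in the same way. Nothing says whether mice shared a cage or preparation day, so p-values measure the spread between these mice. Members and lists were chosen with earlier results of these data known. Named genes are a panel of 44, 10 per direction by size, and in each list the largest called difference per direction, with further members to account for a list; a few are not reported here. limma 3.58.1 and DESeq2 1.42.0 were alternatives, limma on log2(CPM + 1). List counts without APAP mouse 1 and with the vehicles subtracted, and the fits without a CIP mouse, were added after the data were seen. The test was also run on simulated counts of independent mice with equal spread in both groups. Such counts hold no outlying mouse, so that check does not cover APAP mouse 1 or the larger APAP spread. Promoters were RefSeq's, of build GRCm38.p6 and not the files' build. All 13 libraries were used.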

Additional observations from a re-analysis of the deposited data

Results flagged for a closer look

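In 330 groups of 6 or 7 values (the genes examined and the mitochondrial share, in APAP and in CCl4), 30 had 1 mouse far from the others by Dixon's test at the 95% level, which chance alone gives in about 1 of 20 groups. Of these, 15 were APAP mouse 1. In APAP mouse 1, Glul was highest at 1112 CPM, against 26.8 to 58.5 in the rest. Slc7a11 was highest at 4.08 CPM, against 0.158 to 0.587 in the rest. Srxn1 was highest at 529 CPM, against 58.5 to 124 in the rest. Mdm2 was highest at 27.5 CPM, against 10.1 to 14.3 in the rest. Atf3 was highest at 488 CPM, against 3.79 to 13.2 in the rest. Bag3 was highest at 137 CPM, against 16.2 to 29.5 in the rest. Acta2 was lowest at 0.49 CPM, against 26.0 to 106 in the rest. Cxcl10 was highest at 219.6 CPM, against 2.48 to 9.57 in the rest. Sds was highest at 1404 CPM, against 167 to 306 in the rest. Aldh1b1 was lowest at 11.8 CPM, against 22.1 to 30.6 in the rest. Cxcl2 was highest at 994 CPM, against 0.158 to 6.42 in the rest. Txnrd1 was highest at 388 CPM, against 47.0 to 78.8 in the rest. Slc7a5 was highest at 12.3 CPM, against 1.76 to 3.28 in the rest. Hspa8 was highest at 3637 CPM, against 355 to 648 in the rest. Cxcl1 was highest at 1005 CPM, against 19.6 to 79.9 in the rest. In APAP mouse 2, Mki67 was highest at 1.96 CPM, against 0.0298 to 0.519 in the rest. Hsp90aa1 was highest at 156 CPM, against 45.2 to 63.8 in the rest. In APAP mouse 11, Psmc2 was lowest at 28.2 CPM, against 34.8 to 38.2 in the rest. In APAP mouse 8, Pgd was highest at 100.2 CPM, against 63.5 to 73.4 in the rest. In CCl4 mouse 5, Mki67 was highest at 1.36 CPM, against 0.368 to 0.72 in the rest. Mt3 was highest at 1.31 CPM, against 0 to 0.362 in the rest. Ppara was lowest at 16.0 CPM, against 27.1 to 34.2 in the rest. In CCl4 mouse 10, Fam83a was highest at 1.76 CPM, against 0.246 to 0.569 in the rest. In CCl4 mouse 12, Sds was highest at 104 CPM, against 64.0 to 72.3 in the rest. In CCl4 mouse 11, mt-Nd3 was lowest at 72.4 CPM, against 190.3 to 321 in the rest. Slc3a2 was highest at 491 CPM, against 301 to 362 in the rest. Pdia6 was highest at 384 CPM, against 313 to 334 in the rest. Ccl9 was highest at 93.2 CPM, against 34.4 to 47.9 in the rest. Alb was lowest at 9883 CPM, against 15950 to 20980 in the rest. In CCl4 mouse 8, Ahsa1 was highest at 150.3 CPM, against 124 to 134 in the rest.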

How the results depend on the processing

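With each mouse left out in turn, 2548 to 4381 genes were called, the extremes being without CCl4 mouse 6 and without APAP mouse 1, and 2509 to 4326 retained. Called counts were 3217 with DESeq2 size factors, 3959 with DESeq2, 3120 with limma and 2610 with no low-count filter. Requiring a log2 fold change of at least 1 left 1521 called and 1495 retained, and the difference of differences in place of the vehicle rule 1032. The replicate block gave 81 called and 80 retained genes, on the 4 numbers present in both groups. No label says that a number pairs the mice. Same-numbered mice had correlations of deviations of -0.13 to 0.04, and mice of different numbers -0.16 to 0.15. With 4 such pairs these values cannot tell whether mice of the same number shared a day or batch. CCl4 against CIP gave 3015 genes without CIP mouse 8 and 3823 without CIP mouse 7, and the difference of differences 173 and 380. By edgeR, Ctrl against CIP gave 0 genes with gavage mice numbered above 4 (525 at an unadjusted p under 0.05), 115 without CIP mouse 7 and 0 without CIP mouse 8 (248 unadjusted). The mitochondrial difference ranged from 1.6 to 3.61 percentage points with 1 mouse left out, the highest without APAP mouse 8. The number range splits replicate numbers into up to 4 and above 4. Of the 131 called genes examined, the number not called was 62 with the vehicles subtracted, 16 with library-total scaling, 19 with the number range as a covariate, 19 by limma, 16 with no low-count filter, 15 in mice numbered above 4, 3 with DESeq2 size factors and 109 with the replicate block. Genes not called in the main test gained a call, 11 of them without APAP mouse 1, 9 in mice numbered above 4, 5 with library-total scaling, 5 by limma and at most 2 under any other alternative. Signs turned in 15 of 164 genes examined, none of them called in the direct comparison. With the replicate block they were Cyp2e1 -0.36, Cyp3a11 -1.38, Plin2 0.010, Saa1 -0.80, Col1a1 -0.27, Cxcl10 -0.81 and Cd3g -0.16. With library-total scaling they were Cyp3a11 -0.16, Gclm -0.21, Timd4 -0.32, Col1a1 -0.0018 and Cxcl10 -0.43. With the number range as a covariate they were Cyp3a11 -0.27, Plin2 0.032, Saa1 -0.92 and Cxcl10 -1.56. In mice numbered above 4 they were Cyp3a11 -0.70, Plin2 0.39, Saa1 -1.59, Timp1 -0.13 and Cxcl10 -2.21. With limma they were Cyp3a11 -0.67, Saa1 -0.35 and Cxcl10 -1.52. In the difference of differences they were Cyp3a11 -0.24, Gdf15 0.97, S100a8 -1.71 and Timp1 -0.11. With no low-count filter they were Timd4 -0.020. With 1 mouse left out, ranges across 0 were Gdf15 -0.52 to 0.057, Bag3 -1.06 to 0.030, Mki67 -1.19 to 0.093, Plin2 -0.56 to 0.10, Saa1 -0.63 to 1.25, Timd4 -0.049 to 0.20, Cxcl10 -2.65 to 0.79, Atf4 -0.67 to 0.078 and Cd3g -0.091 to 0.69. Calls higher in APAP minus calls higher in CCl4 turned to -1 with library-total scaling for the bile acid, urea cycle, cell death and repair macrophage lists, and to 1 for interferon-stimulated genes with the number range as a covariate. Under library-total scaling 24.3% of all genes were called higher in CCl4 and 4.48% in APAP, and the share of each of these 4 lists called higher in CCl4 was below the former, so nothing is read from these turns. The cause of these changes was not tested. Compound doses and the vehicle of each compound were not in the labels, the intraperitoneal control rests on 2 mice, and low counts limit genes under about 1 CPM.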
